A study of Mus musculus with 12 samples.

Results

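The matrix metalloproteinase group examined here comprises 10 genes of the 21743 in the deposited table, chosen by name: the secreted proteases Mmp2, Mmp3, Mmp9, Mmp11 and Mmp13, the membrane-anchored protease Mmp14, the tissue inhibitors Timp1, Timp2 and Timp3, and the collagen receptor Mrc2. They were read in single cells of mammary glands and mammary tumors from 2 mice. Both animals carried MMTV-Cre, a recombinase driven mainly in mammary epithelium, together with Brca1 flox/flox alleles on a mixed C57BL/6 and 129/Sv background, and no animal without the deletion was sampled. From mouse 1 the fourth mammary glands gave MG1 (818 cells, 2 libraries) and a tumor gave MT1 (7690 cells, 5 libraries). From mouse 2 the glands gave MG2 (2335 cells, 2 libraries) and a tumor gave MT2 (10314 cells, 3 libraries). The tissue was digested with enzymes that included a collagenase, and blood and endothelial cells were depleted before the cells were loaded for Drop-seq, which tags the 3′ end of each captured RNA molecule with a unique molecular identifier (UMI). The protocol for gland suspensions names females aged 3 to 4 months, virgin or pregnant, and does not say which applied to these tumor-bearing mice.

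Matrix metalloproteinases (MMPs) are zinc-dependent enzymes that are made as inactive proenzymes and cut collagens, other matrix proteins and many cell surface proteins once the propeptide is removed. The TIMP proteins bind the active site of MMPs and block it, and TIMP2 also helps MMP14 at the cell surface to activate pro-MMP2. In the mammary gland these genes are known for their part in branching and in involution after weaning, where much of the activity comes from stromal cells. Mrc2 encodes Endo180, an endocytic receptor that takes collagen fragments into the cell. RNA counts report neither secretion nor activation of these proteins.

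Libraries held 105 to 4874 cells and 693333 to 14841414 UMIs, with a median of 1784 to 4842 UMIs per cell. Clustering without the members and without the wider protease lists gave 12 clusters, which were named from marker lists. Clusters 8 (399 cells) and 10 (290 cells) were fibroblast-like, cluster 11 endothelial-like, cluster 12 immune-like, and clusters 6, 7 and 9 luminal hormone-sensing-like, luminal secretory-like and basal-like. Clusters 3 and 4 were epithelial-like and came almost wholly from MT1. Clusters 1, 2 and 5 stayed unnamed. A name needed at least 3 markers and 50% of a cell type list above a log2 fold of 1 over the other cells. Cluster 1 had 3 of the 11 fibroblast markers. The cycling and mesenchymal lists were not used for names, and cluster 2 had all 10 cycling markers above that fold. Clusters 1 and 2 held 5680 and 4080 cells of MT2, and cluster 5 held 1343 cells of MT1. The preparation aimed at epithelial cells, but epithelial markers were low in MT2: Epcam stood at 8.73 to 22.3 counts per 1000000 UMIs (CPM) in its libraries against 1690 to 3610 CPM in the other libraries, whereas Vim stood at 3840 to 3930 CPM. Outside the stromal clusters the 8 epithelial markers summed to 644 to 877 CPM in MT2 libraries against 7170 to 13400 CPM in all others, with none at 0, and to 715 and 786 CPM in clusters 1 and 2 against 523 CPM in fibroblast-like cluster 8. Outside the stromal clusters the 11 fibroblast markers summed to 4550 to 5060 CPM in MT2 libraries against 313 to 744 CPM in all others, with none of the markers at 0, and the part this plays in the MT2 values below was not tested. Brca1 had 0 UMIs in MG1 and 21, 202 and 425 UMIs in MG2, MT1 and MT2, and because only 3′ ends were read, these counts say nothing of the floxed exons. Libraries of 1 tissue of 1 mouse repeat the preparation and not the animal, so p-values of library comparisons cover only the spread between these libraries.

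The members lie on 7 chromosomes in the mouse build GRCm38 (GENCODE vM21). Mmp3 (chr9:7445822-7455975, plus strand) and Mmp13 (chr9:7272514-7283331, plus strand) share a cluster of MMP genes, with 173 kb from start to start. Mmp2 lies at chr8:92827291-92853420 (plus), Mmp9 at chr2:164940780-164955850 (plus), Mmp11 at chr10:75923222-75936496 (minus) and Mmp14 at chr14:54431612-54445364 (plus). Timp1 lies at chrX:20870166-20874735 (plus), Timp2 at chr11:118301069-118355740 (minus), Timp3 at chr10:86300372-86349506 (plus) and Mrc2 at chr11:105292643-105351139 (plus). Mmp11, Timp1 and Timp3 overlap Chchd10, Syn1 and Syn3 on the opposite strand, and because the use of strand in counting was not given in the sources used here, reads from the overlaps cannot be told apart. Timp2 overlaps Cep295nl on the same strand, so the counts of both are uncertain there.

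The promoter sequences of Mmp3 and Mmp13 are shown because these neighbouring genes both had their highest levels in a fibroblast-like cluster and yet differed between the fibroblast-like cells of glands and tumors. The 250 bases before the start are printed from RefSeq promoters on GRCm38.p6, chr9:7445572-7445821 for Mmp3 and chr9:7272264-7272513 for Mmp13, both on the plus strand. Capitals mark the AP-1 letters TGANTCA, the RUNX letters AACCACA and the TATA letters TATAAA, searched on both strands.
Mmp3: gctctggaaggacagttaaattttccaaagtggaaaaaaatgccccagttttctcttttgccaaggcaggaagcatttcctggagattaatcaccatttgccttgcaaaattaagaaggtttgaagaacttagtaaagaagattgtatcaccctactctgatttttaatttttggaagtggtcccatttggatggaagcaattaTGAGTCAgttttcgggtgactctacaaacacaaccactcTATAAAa
Mmp13: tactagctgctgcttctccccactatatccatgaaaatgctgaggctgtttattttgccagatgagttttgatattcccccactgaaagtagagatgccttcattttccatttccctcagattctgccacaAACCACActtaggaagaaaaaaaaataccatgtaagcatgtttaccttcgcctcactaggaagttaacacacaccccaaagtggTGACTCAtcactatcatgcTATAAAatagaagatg
Both promoters hold an AP-1 match, TGAGTCA at 46 to 40 bases before the start in Mmp3 and TGACTCA at 35 to 29 bases before the start in Mmp13, and both hold TATAAA, at 7 to 2 and at 16 to 11 bases before the start. AACCACA was found in Mmp13, at 119 to 113 bases before the start, and these letters are not in the Mmp3 window. Among 32851 promoters of this length, 6.75% hold TGANTCA, 4.40% hold AACCACA, 12.4% hold TATAAA and 33.8% hold CCAAT. Of the 10 members 7 were matched to the promoter table, all but Mmp2, Mmp9 and Mrc2. The CCAAT letters were found in Mmp14 (at 69 to 65 and at 23 to 19 bases before the start), Timp1 (190 to 186) and Timp2 (162 to 158), and none of the 4 motifs was found in the windows of Mmp11 and Timp3. A match is a description of the letters and was not tested as a binding site.

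Where each member was read was first described by cluster, with no test since the clusters were made from the same cells. In glands Mmp2 and Mmp3 were read mainly in fibroblast-like cells, in MT2 Mmp2 and Timp1 were read in most cells of the tumor and Mmp13 mainly in fibroblast-like cluster 8, and the highest Mmp9 level was in the immune-like cluster. Timp3 had its highest levels in the basal-like and endothelial-like clusters and in fibroblast-like cluster 10.

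**Figure D1:**
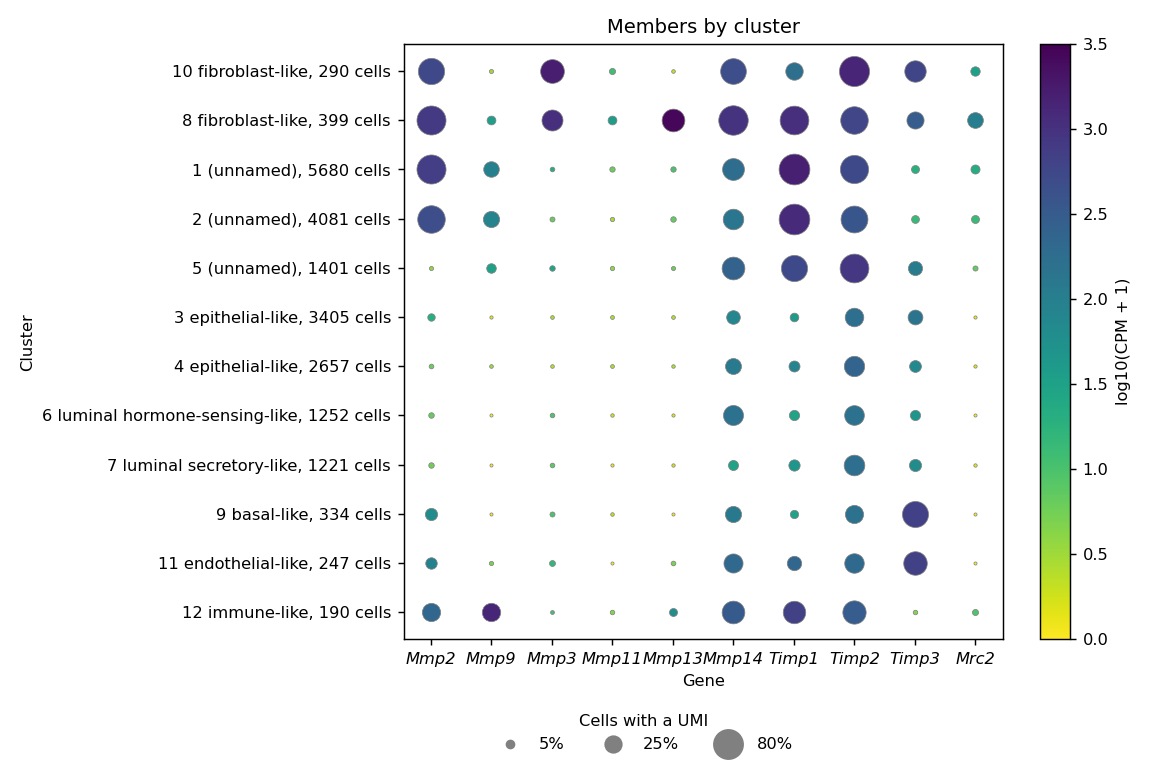
Level of the 10 members in the 12 clusters, with clusters as rows and genes as columns, the color of a dot giving log10 of CPM plus 1 from summed UMIs and its size the percent of cells with a UMI. Mmp13 stands out in fibroblast-like cluster 8 (2770 CPM) against 1.08 CPM in fibroblast-like cluster 10, Mmp9 peaks in immune-like cluster 12 at 1330 CPM, and Mmp2 is high in clusters 1, 2, 8 and 10.

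Among the gelatinases, which cut denatured collagen and basement membrane, Mmp2 reached 834 CPM in cluster 8, 735 CPM in cluster 1, 554 CPM in cluster 10 and 468 CPM in cluster 2. In the remaining clusters it lay between 2.93 CPM (cluster 5) and 222 CPM (cluster 12). At least 1 UMI of Mmp2 was found in 80.1% of the cells of cluster 1 (exact 95% interval 79.0 to 81.1%), and after each cell was thinned to 1000 UMIs in 47.6%. Immune-like cells of MT2, used as a reference for RNA free in the suspension, showed Mmp2 in 32.4% of 182 cells and in 15.4% after thinning. Their median was 2290 UMIs against 2990 in cluster 1. Whether these cells also make RNA of the members themselves was not tested. By library the reference was 9.3%, 52.1% and 26.5% (thinned 2.33%, 28.2% and 10.3%), so MT2 replicate 2 carried most of it, and without that library it was 19.8% (thinned 7.21%). Both shares of cluster 1 lay above those of the reference in each MT2 library.

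Mmp9, which inflammatory cells such as neutrophils and macrophages are known to release, reached 1330 CPM in the immune-like cluster, 93.7 CPM in cluster 1 and 82.3 CPM in cluster 2. The immune-like cells of the 3 MT2 libraries gave 2310, 1330 and 949 CPM. A few cells carried most of it. Of 182 immune-like MT2 cells, 60 had a UMI of Mmp9, 20 had 10 or more, the highest had 166, and the 10 richest cells held 68.3% of 783 UMIs. In cluster 1 the 2056 UMIs were spread over 1269 cells, 22.3% of the cluster, and thinning left 7.98% against 2.37% of the 295 fibroblast-like cells of MT2. Mmp9 had 0 UMIs in luminal clusters 6 and 7, which allows up to 0.580 and 0.610 CPM.

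Of the stromelysins, Mmp3, which cuts many matrix proteins and activates other MMPs, stood at 1590 CPM in cluster 10 and 1080 CPM in cluster 8. Its next highest level was 27.3 CPM, in cluster 5. It was found in 53.1% of cluster 10 and 41.4% of cluster 8 (39.3% and 31.1% after thinning), against 1.12% and 1.15% of the luminal clusters 6 and 7 at higher median depths of 2771 and 2705 UMIs against 2363 in cluster 10. In clusters 1 and 2 single cells carried it: 65 of 5680 cells of cluster 1 had a UMI, the highest had 123, and 10 cells held 80.9% of the 439 UMIs. Mmp11, stromelysin-3, was low everywhere, with 36.2 CPM in cluster 8 and 10.8 CPM in cluster 10 as its highest levels.

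Mmp13, the main fibrillar collagenase of the mouse, was read in 194 of 399 cells of cluster 8 (48.6%, exact 95% interval 43.6 to 53.6%, thinned 40.1%) and in 1 of 290 cells of cluster 10. Cluster 8 cells of the 3 MT2 libraries gave 4230, 1730 and 4370 CPM, whereas those of the 5 MT1 libraries gave 66.8, 71.7, 176, 37.0 and 243 CPM. The MT1 values rest on 1 to 11 UMIs a library. Immune-like MT2 cells held it in 5.49% of cells.

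Mmp14, the membrane-type protease that activates MMP2, was the most widely read of the proteases, from 28.1 CPM in luminal secretory-like cluster 7 to 985 CPM in cluster 8. Fibroblast-like cluster 10 (476 CPM), the immune-like cluster (334 CPM) and cluster 5 (261 CPM) followed. Within the epithelium, cluster 6 stood at 156 CPM, found in 37.4% of cells, and cluster 7 at 8.85% of cells.

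Of the inhibitors, Timp1, a secreted inhibitor often induced in injured and inflamed tissue, stood at 1560 and 1210 CPM in clusters 1 and 2 and was found in 90% and 89.5% of their cells (67.7% of cluster 1 after thinning). It stood at 1070 CPM in cluster 8, at 534 CPM in cluster 5 and at 172 CPM in cluster 10. Immune-like MT2 cells held a UMI of Timp1 in 48.9% of cells, or 34.1% after thinning. By library these shares were 20.9%, 77.5% and 36.8% (thinned 11.6%, 52.1% and 29.4%), and without MT2 replicate 2 they were 30.6% and 22.5% in all. Timp2, present in most tissues, ranged less, from 150 CPM in cluster 6 to 1360 CPM in cluster 10, with cluster 5 next at 875 CPM. Timp3, which binds to the matrix itself, stood at 683 CPM in the basal-like cluster, 671 CPM in the endothelial-like cluster and 605 CPM in cluster 10. It was at 303 CPM in cluster 8, at 17.9 and 13 CPM in clusters 1 and 2, and at 3.39 CPM (2 UMIs) in the immune-like cluster. Mrc2 stood at 103 CPM in cluster 8, 32.5 CPM in cluster 10 and 21.3 CPM in cluster 1, and at 0 UMIs in clusters 6, 9 and 11.

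**Figure D2:**
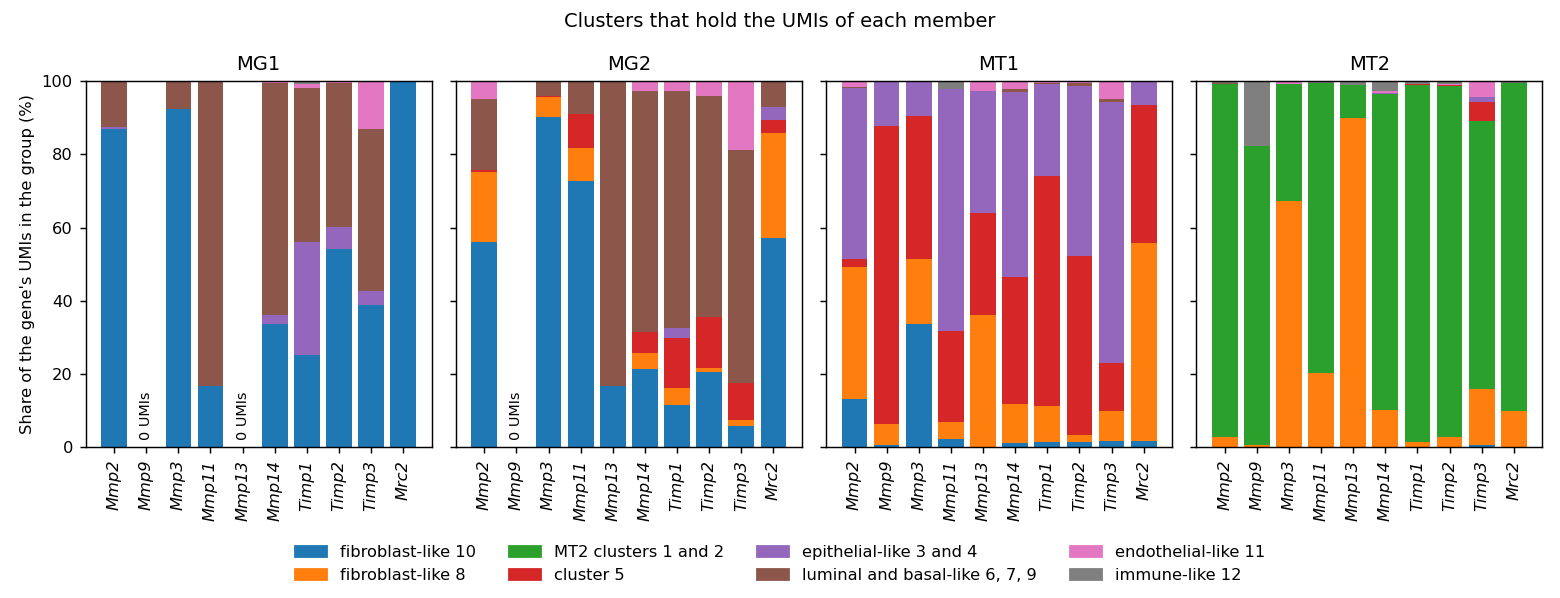
Share of each member's UMIs, in percent of its UMIs in MG1, MG2, MT1 or MT2, that came from each cell class. In the glands the fibroblast-like cells hold most Mmp2 and Mmp3 UMIs (86.9% and 92.3% in MG1), whereas in MT2 the fibroblast-like cluster 8 holds 89.9% of Mmp13 and the unnamed tumor clusters hold most Mmp2 and Timp1.

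The source of each member's RNA differed by tissue in the same way. In MG1 fibroblast-like cluster 10 held 92.3% of all Mmp3 UMIs and 86.9% of all Mmp2 UMIs, and in MG2 the fibroblast-like cells held 95.6% and 75.2%. In MT2 clusters 1 and 2 held 96.4% of Mmp2 and 97.6% of Timp1 UMIs, cluster 8 held 89.9% of Mmp13 and the immune-like cells 17.7% of Mmp9. In MT1 the unnamed cluster 5 held 81.3% of Mmp9 and 62.8% of Timp1 UMIs while making up 17.5% of the cells. Of the 75 Mmp13 UMIs of MT1, cluster 8 held 36.0%, epithelial-like clusters 3 and 4 held 33.3% and cluster 5 held 28.0%, and of the 6 in MG2 fibroblast-like cells held 1.

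To ask how the members differed between tumor and gland apart from the stroma, counts of the cells outside the stromal clusters (8, 10, 11 and 12) were summed per library and tested with edgeR over 13649 genes, with levels given as CPM on TMM-scaled totals. In mouse 1, Timp1 and Timp2 rose in the tumor, and Mmp9, Mmp13 and Mrc2 were read in the tumor and had 0 UMIs in the gland. Mmp3 and Timp3 were called lower there, the Mmp3 call being lost under other clusterings. In mouse 2, all members but Timp3 were called higher, and Timp3 fell. In MT1 against MG1, 5 members were higher and 2 lower, with 32.2% and 27.1% of all genes tested called higher and lower. In MT2 against MG2, 9 were higher and 1 lower, with 32.7% and 34.2% of all genes. All 10 passed the filter on low counts, but Mmp9 had 0 UMIs in both glands and passed only through the tumor libraries where it is read. Mmp13 and Mrc2 had 0 UMIs in MG1, and Mmp11, Mmp13 and Mrc2 had 2, 5 and 4 UMIs in MG2. These genes also passed only through tumor libraries. The calls on Mmp9, Mmp11, Mmp13 and Mrc2 over such a gland are thus no support for the counts.

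**Figure D3:**
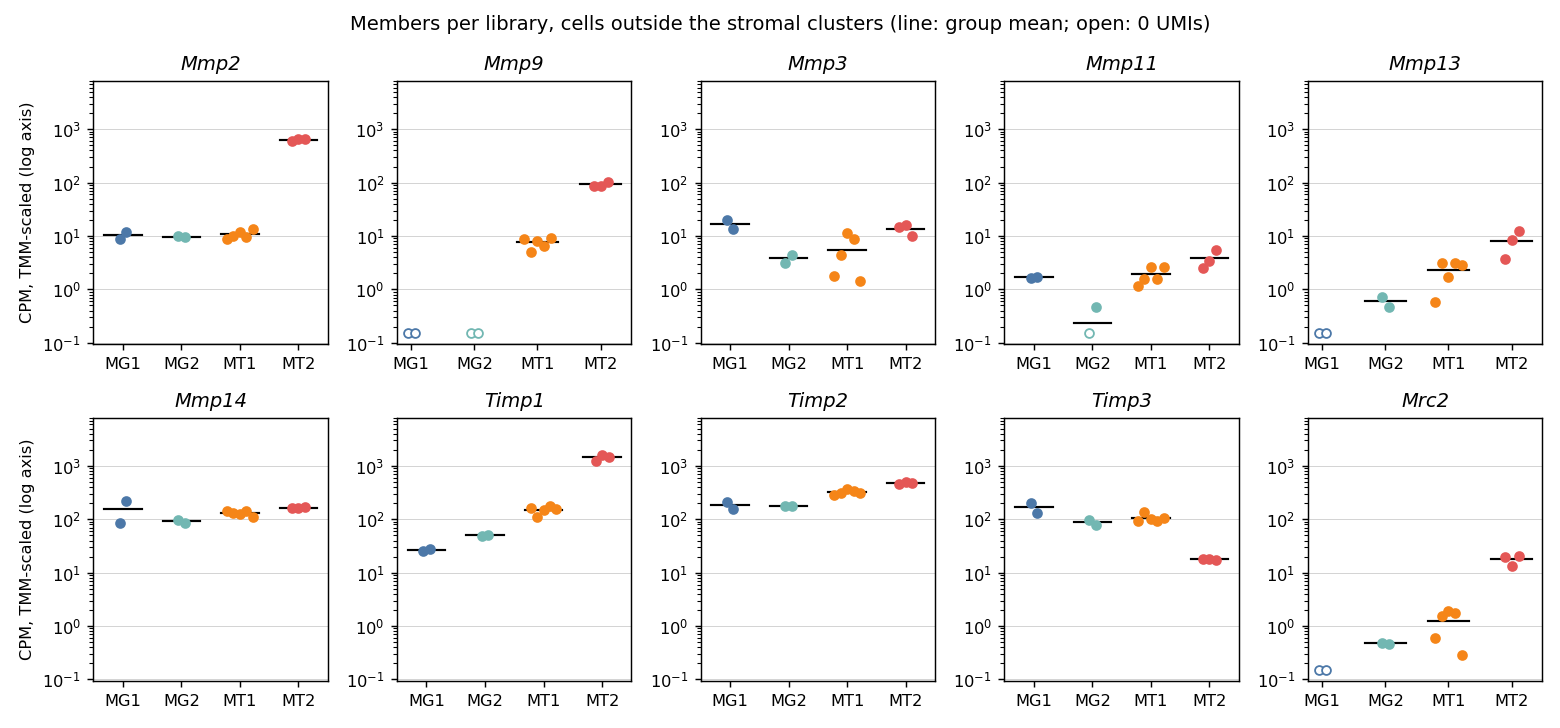
Level of each member in every library, over the cells outside the stromal clusters, in CPM on TMM-scaled totals (log axis), 1 panel a gene, with each point a library, the line the group mean and open points libraries with 0 UMIs. The 3 MT2 libraries sit at 608 to 653 CPM for Mmp2 and 1250 to 1630 CPM for Timp1, above every other library, and at 17.6 to 17.9 CPM for Timp3, below every other library.

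Mmp2 stood at 8.66 and 12 CPM in MG1, at 10.0 and 9.40 CPM in MG2, at 8.85, 9.82, 11.7, 9.39 and 13.7 CPM in MT1, and at 608, 649 and 653 CPM in MT2. The MT2 libraries lay far above the rest, and the other 3 groups overlapped. The log2 fold change was 6.03 in MT2 against MG2 (SE 0.21, edgeR adjusted p 7.5e-14) and 0.20 in MT1 against MG1 (SE 0.27, adjusted p 0.548). With the stromal cells counted, Mmp2 was lower in MT1 than in MG1 (-1.42, SE 0.20, adjusted p 1.45e-05). Mmp9 had 0 UMIs in all 4 gland libraries, 8.85, 5.10, 8.13, 6.45 and 9.32 CPM in MT1, and 86.9, 87.8 and 102 CPM in MT2. Mmp9 was thus read in every tumor library and in no gland library. With the libraries of a group pooled and the gland set to a limit of 3 UMIs over the group, the tumor level of mouse 1 was at least 7.58-fold higher. In mouse 2 the same ratio was at least 258-fold.

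Mmp3 outside the stromal clusters stood at 19.8 and 13.7 CPM in MG1, 3.11 and 4.47 CPM in MG2, 1.77, 4.32, 11.3, 8.80 and 1.46 CPM in MT1, and 14.9, 16.3 and 10.1 CPM in MT2. The tumor lay below the gland in mouse 1 and above it in mouse 2, without overlap in either. The log2 fold changes were -1.47 (SE 0.51, edgeR adjusted p 0.0193) and 1.86 (SE 0.51, adjusted p 0.00385). Few cells made these levels: the 10 richest held 66.5% of the MT2 UMIs and 71.6% of the 88 gland UMIs. Without the 5% of cells with most UMIs in each library the MT2 change was 1.62 (edgeR adjusted p 0.00898). Without MG1 replicate 1 the change in mouse 1 was -1.05. The mouse 1 change missed the threshold at a finer clustering (-0.69, adjusted p 0.322) and with the members kept in clustering (-0.70, adjusted p 0.317). In both, 597 cells of MG1 replicate 1 lay outside the stroma in place of 598. When the stromal cells were counted too, Mmp3 in mouse 2 turned to -0.97 (SE 0.30, adjusted p 0.00958), with fibroblast-like cells at 5.49 to 6.08% of MG2 and 1.78 to 4.15% of MT2. In such sums, fewer cells of a type and less RNA per cell cannot be told apart.

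Mmp11 stayed at 1.65 and 1.71 CPM in MG1, 0 and 0.47 CPM in MG2, 1.18 to 2.66 CPM in MT1 and 2.51, 3.45 and 5.51 CPM in MT2. The MT2 level exceeded that of MG2, where 2 UMIs were counted, by a ratio of 16.0 (counting interval 4.35 to 133, edgeR adjusted p 0.000157). Mmp11 passed the filter on low counts only through tumor libraries, so this p is no support for the rise. In mouse 1 the log2 fold change of Mmp11 was 0.30 (SE 0.76, adjusted p 0.757). Mmp13 had 0 UMIs in MG1, 0.718 and 0.47 CPM in MG2, 0.59, 3.14, 1.72, 3.13 and 2.91 CPM in MT1 and 3.76, 8.28 and 12.2 CPM in MT2. It was at least 2.41-fold higher in MT1 than in MG1 (edgeR adjusted p 0.0293, but 0.335 without MG1 replicate 1), and in mouse 2 the log2 fold change was 3.72 (SE 0.68, adjusted p 0.000124). With 0 UMIs in MG1 and 5 in MG2, Mmp13 passed the filter on low counts only through tumor libraries, so these p-values are no support for a rise. In MT2 outside the stroma 1.9% of cells held a UMI of Mmp13 (0.725% after thinning). This lay below the 5.49% (3.3% after thinning) of immune-like MT2 cells at a lower median depth. The UMIs were unevenly spread in both, with 35.0% of 314 in 10 cells and up to 30 in a cell outside the stroma, and all 35 in 10 immune-like cells. The part of RNA free in the suspension in this level was not tested.

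Mmp14 moved little. It stood at 84.6 and 224 CPM in MG1, 97.8 and 85.1 CPM in MG2, 141, 132, 127, 141 and 112 CPM in MT1 and 166, 161 and 170 CPM in MT2. The MG1 libraries enclosed all MT1 libraries, whereas all MT2 libraries lay above those of MG2. In MT2 42.5% of the cells outside the stroma held a UMI of Mmp14 (15.4% after thinning), against 50.5% of immune-like cells (19.8% after thinning). The log2 fold change was 0.86 in mouse 2 (SE 0.25, edgeR adjusted p 0.00509, but 0.0542 without MG2 replicate 2) and -0.13 in mouse 1 (SE 0.24, adjusted p 0.667). The mouse 1 value turned on the gland library used, at 0.64 (adjusted p 0.0058) without MG1 replicate 2 and -0.78 (adjusted p 0.00217) without MG1 replicate 1.

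Timp1 rose in both mice. It stood at 25.6 and 27.4 CPM in MG1 and 49.5 and 50.3 CPM in MG2, against 162, 112, 151, 177 and 156 CPM in MT1 and 1250, 1630 and 1480 CPM in MT2. Each tumor library lay above both glands, and MT2 lay above MT1. The log2 fold changes were 2.54 (SE 0.23, edgeR adjusted p 9.64e-08) and 4.87 (SE 0.23, adjusted p 1.91e-12). Of the 78 Timp1 UMIs of MG1, 33 came from 15 cells grouped with the tumor clusters. Leaving these out, Timp1 rose by 3.16 in mouse 1 (adjusted p 1.1e-07). Timp2 stood at 208 and 158 CPM in MG1, 179 and 176 CPM in MG2, 281, 307, 367, 335 and 317 CPM in MT1 and 466, 491 and 473 CPM in MT2. It rose by 0.79 (SE 0.16, adjusted p 0.000341) and 1.42 (SE 0.16, adjusted p 4.33e-07) on the log2 scale, again with no overlap of tumor and gland. With the stromal cells counted the mouse 1 change of Timp2 was -0.06 (adjusted p 0.719), beside fibroblast-like shares of 14.0 to 22.9% in MG1 and 1.40 to 3.54% in MT1.

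Timp3 stood at 202 and 132 CPM in MG1, 95.9 and 79.4 CPM in MG2, 92.6, 135, 103, 92.9 and 108 CPM in MT1, and 17.9, 17.7 and 17.6 CPM in MT2. The MT2 libraries were the lowest of all and nearly equal, and MT1 overlapped with both glands. It fell by 2.30 on the log2 scale in mouse 2 (SE 0.19, edgeR adjusted p 5.55e-09) and by 0.69 in mouse 1 (SE 0.18, adjusted p 0.00258), where without MG1 replicate 1 the change was -0.31 (adjusted p 0.309). Mrc2 had 0 UMIs in MG1, 0.478 and 0.47 CPM in MG2, 0.59, 1.57, 1.88, 1.76 and 0.291 CPM in MT1, and 19.9, 13.2 and 20.5 CPM in MT2. MT2 stood apart, with a rise of 5.17 over MG2 (SE 0.51, adjusted p 9.57e-08). With 4 UMIs in MG2, Mrc2 passed the filter on low counts only through tumor libraries, so this p is no support for the rise. MT1 was at least 1.41-fold above MG1 (adjusted p 0.0348), a call that was lost without either MG1 replicate, without MT1 replicate 3 or without MT1 replicate 4 (adjusted p 0.353, 0.0539, 0.0564 and 0.0531). The call was also lost in DESeq2 (2.99, adjusted p 0.0921). In edgeR it was lost without gland cells in tumor clusters (adjusted p 0.0515) and without the 5% of cells with most UMIs (adjusted p 0.0709). With the stromal cells counted, the mouse 1 change of Mrc2 was -0.05 (adjusted p 0.958).

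**Figure D4:**
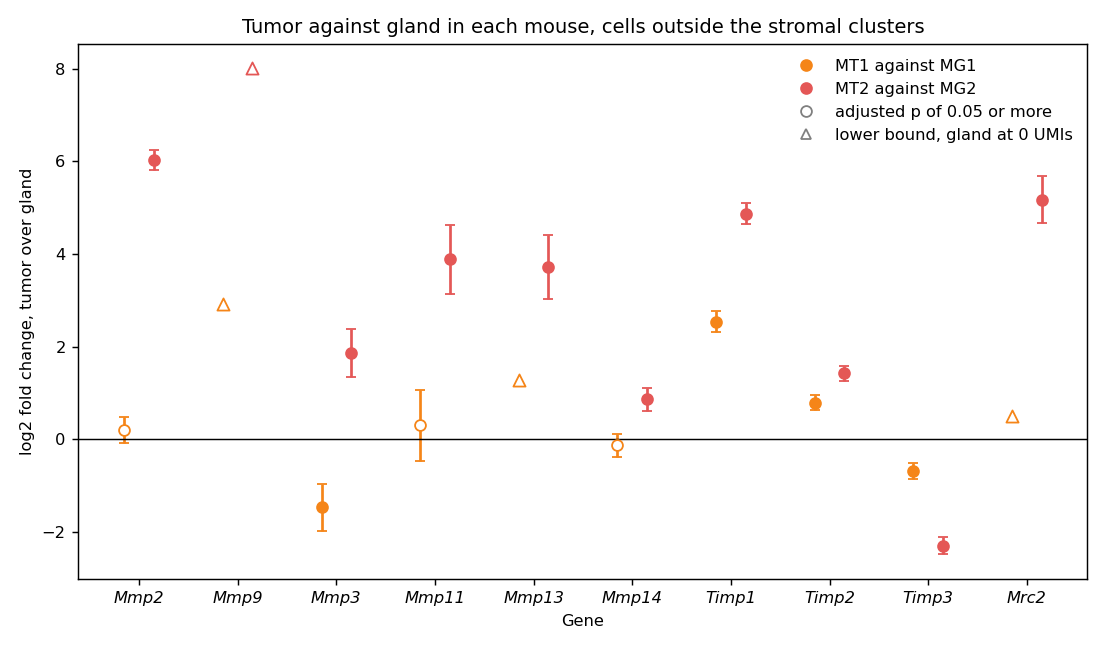
Log2 fold change of each member in MT1 against MG1 and in MT2 against MG2, over cells outside the stromal clusters, with bars of 1 SE, open circles where the adjusted p was 0.05 or more and open triangles for lower bounds where a gland had 0 UMIs. Timp1 lies above 0 in both mice (2.54 and 4.87), Timp3 below 0 in both (-0.69 and -2.30), and Mmp3 on opposite sides of 0.

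Whether the tumor-gland change differed between the mice was tested in the same fit, as the mouse 1 change minus the mouse 2 change. It was called lower for 6 members and higher for 1, with 17.2% of all genes lower and 26.5% higher. Mmp2 differed by -5.83 (SE 0.40, edgeR adjusted p 1.6e-09), Mmp3 by -3.33 (SE 0.73, adjusted p 0.00122) and Timp1 by -2.33 (SE 0.30, adjusted p 6.38e-06). Timp3 differed by 1.61 (SE 0.26, adjusted p 8.72e-05), since it fell less in mouse 1. Mmp11 differed by -3.59, but with the stromal cells counted by -1.55 (edgeR adjusted p 0.156), which was not called. The calls on Mmp11, Mmp14 (-0.99) and Timp2 (-0.63) outside the stroma had adjusted p between 0.0252 and 0.0269. Leaving out MG1 replicate 1 ended those on Mmp3, Mmp11 and Timp2 (adjusted p 0.0581, 0.241 and 0.212), leaving out MG1 replicate 2 that on Mmp14 (0.433), leaving out MG2 replicate 1 those on Mmp11, Mmp14 and Timp2 (0.105, 0.0567 and 0.0814), and leaving out MG2 replicate 2 those on Mmp14 and Timp2 (0.118 and 0.115). Mmp13 and Mrc2 missed the threshold (adjusted p 0.58 and 0.768), but with the stromal cells counted Mrc2 was called lower (-2.71, SE 0.75, adjusted p 0.00741), and for Mmp9, with 0 UMIs in both glands, the difference could not be estimated.

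Between the tumors, 8 members were lower in MT1 than in MT2 and 1 was higher, with 33.1% and 35.3% of all genes. Mmp2 was lower by -5.87 on the log2 scale (SE 0.14, edgeR adjusted p 1.21e-15), Mrc2 by -3.67 (SE 0.30, adjusted p 7.17e-09), Mmp9 by -3.61 (SE 0.16, adjusted p 5.68e-12) and Timp1 by -3.26 (SE 0.14, adjusted p 6.24e-13). Mmp13 (-1.74), Mmp3 (-1.08), Mmp11 (-0.89) and Timp2 (-0.57) were lower too, with adjusted p from 0.000477 to 0.0325. The call on Mmp11 was lost without MT1 replicate 2, MT1 replicate 4 or MT2 replicate 3 (adjusted p 0.0595, 0.0731 and 0.193). Timp3 was higher in MT1 by 2.58 (SE 0.17, adjusted p 1.57e-10). Mmp14, at -0.35 (SE 0.19, adjusted p 0.114), was called lower in a fit of the MT1 and MT2 libraries alone (-0.34, edgeR adjusted p 0.00753). It was also called without MG1 replicate 1 or MG1 replicate 2. These comparisons share libraries, and the groups cannot be told apart from the mouse they came from.

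With the mouse as the replicate (4 sums, gland and tumor of a mouse paired), edgeR called 0 members and 0 of 14955 genes, a share of 0%. An unadjusted p under 0.05 was reached by 5 members and 2232 genes. DESeq2 called 3 members and 1332 genes, the members being Mmp2 (log2 fold change 3.24, adjusted p 0.0471), Timp1 (3.82, adjusted p 2.26e-05) and Mrc2 (5.10, adjusted p 0.011). In edgeR the Timp1 change was 3.80 (SE 0.80, adjusted p 0.306).

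The fibroblast-like populations of tumors and glands were then set against each other by the same test on their own sums, over 3908 genes. Averaged over the mice, Timp1, Mmp13, Mmp14 and Mrc2 rose, Mmp3 and Timp2 fell, and Mmp2 did not pass the test. Within mouse 2, Mmp3, Mmp14 and Mrc2 missed the threshold. The average thus had 4 members higher and 2 lower, with 22.4% and 23.1% of all genes. Mmp9 and Mmp11 were left out by the filter on low counts. Mmp13 had 1 UMI in the glands and passed that filter only through tumor libraries, so its call is no support. Glands and tumors drew on different clusters: all 124 such cells of MG1 and 124 of 135 in MG2 came from cluster 10, whereas 99 of 135 in MT1 and 289 of 295 in MT2 came from cluster 8. The fibroblast markers summed to 39600 CPM in cluster 8 and 19400 CPM in cluster 10, against 5600 CPM in cluster 1 and 3730 CPM in cluster 2.

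**Figure D5:**
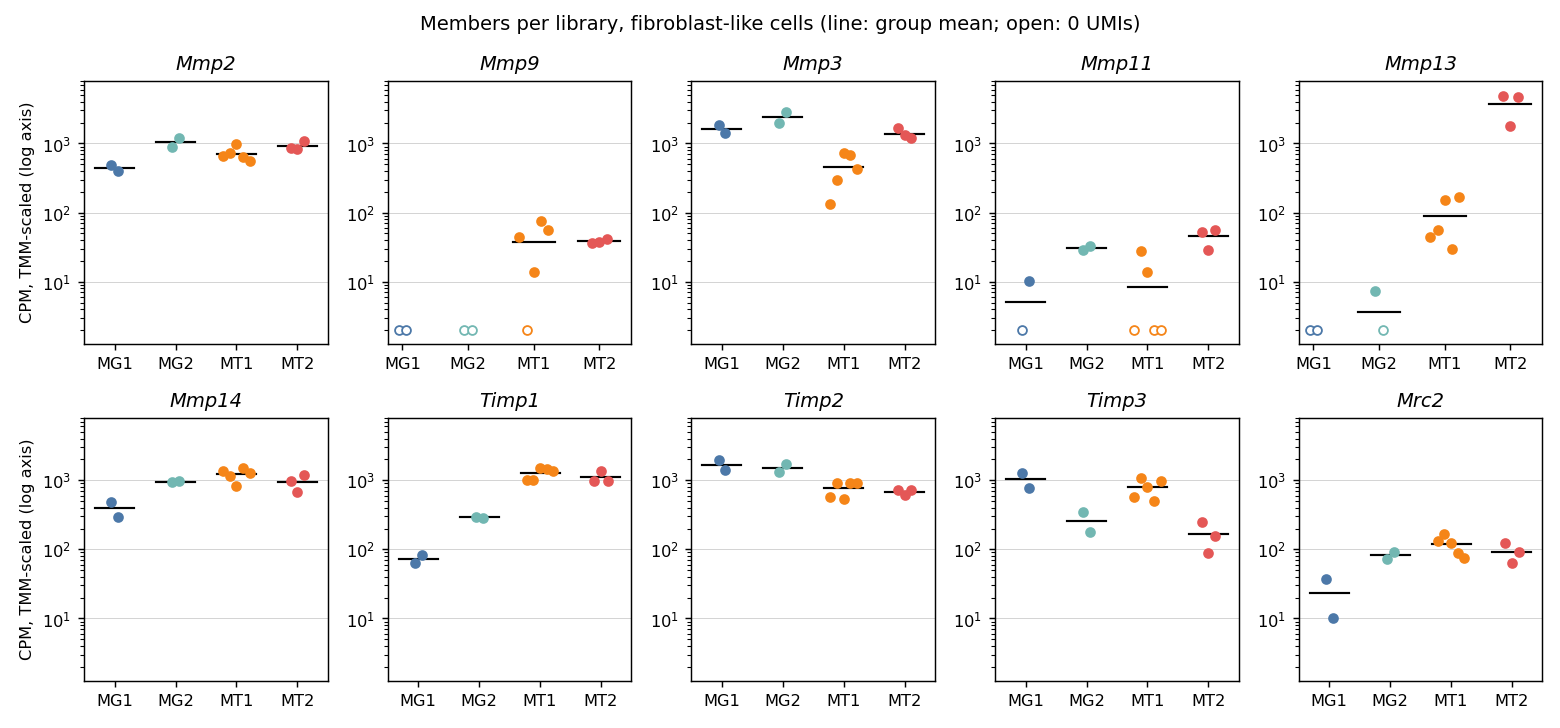
Level of each member in the fibroblast-like cells of every library, in CPM on TMM-scaled totals (log axis), 1 panel a gene, with each point a library, the line the group mean and open points libraries with 0 UMIs. Mmp13 lies at 1810 to 4800 CPM in MT2 and at 0 to 7.26 CPM in the glands, Timp1 is higher in all 8 tumor libraries than in the 4 gland libraries, and Timp2 is lower in all tumor libraries.

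Mmp13 in fibroblast-like cells had 0 UMIs in both MG1 libraries and 7.26 and 0 CPM in MG2 (1 UMI), against 44.4, 55.9, 153, 29.9 and 167 CPM in MT1 and 4800, 1810 and 4650 CPM in MT2. All tumor libraries lay above all gland libraries. MT1 was at least 12.4-fold above MG1, and MT2 was above MG2 by a ratio of 1130 (counting interval 202 to 44500). The edgeR test averaged over both mice gave adjusted p 3.19e-09. With 1 UMI in the glands, Mmp13 passed the filter on low counts only through the tumor libraries, so this p is no support for the rise. In the tumors 194 of 430 fibroblast-like cells held 3141 UMIs, 88 of them 10 or more, and in the glands 1 of 259 cells held 1 UMI.

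Mmp3 in the same cells stood at 1870 and 1420 CPM in MG1, 2010 and 2860 CPM in MG2, 133, 293, 738, 673 and 427 CPM in MT1, and 1650, 1340 and 1190 CPM in MT2. MT1 lay below both glands, and MT2 overlapped with MG1. The change averaged over the mice was -1.29 (SE 0.24, edgeR adjusted p 0.000119), with -1.77 in mouse 1 (SE 0.33, adjusted p 0.000224) and -0.80 in mouse 2 (SE 0.34, adjusted p 0.0971). Cells holding both neighbouring genes were seen in MT2, where of 295 fibroblast-like cells 147 held Mmp3, 186 held Mmp13 and 95 held both, beside 92.7 that the shares of the genes alone would give. In MT1, 35 of 135 held Mmp3, 8 held Mmp13 and 2 held both, and in MG2 91 of 135 held Mmp3, 1 of which was the single cell with Mmp13.

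Timp1 in fibroblast-like cells stood at 64.2 and 82.1 CPM in MG1 and 298 and 280 CPM in MG2, against 1020, 1020, 1500, 1460 and 1370 CPM in MT1 and 973, 1350 and 981 CPM in MT2. The tumor libraries of both mice reached like levels from glands that differed. On unscaled totals the MT2 libraries gave 859, 1260 and 891 CPM, against 123, 1190 and 535 CPM in their immune-like cells. The part of RNA free in the suspension in the MT2 level was not tested. The rise was 3.05 over both mice (SE 0.24, edgeR adjusted p 5.38e-10), 4.18 in mouse 1 (SE 0.36, adjusted p 2.32e-08) and 1.93 in mouse 2 (SE 0.31, adjusted p 5.74e-05). Timp2 stood at 1960 and 1400 CPM in MG1, 1300 and 1690 CPM in MG2, 577, 922, 529, 912 and 909 CPM in MT1 and 719, 603 and 712 CPM in MT2, and thus went down in these cells while it rose in the cells outside the stroma. It fell by 1.12 (SE 0.19, adjusted p 6.04e-05), by 1.11 in mouse 1 (adjusted p 0.00232, but 0.0642 without MG1 replicate 1) and by 1.14 in mouse 2 (adjusted p 0.00524, but 0.133 without MG2 replicate 2). Timp3, at 760 and 1290 CPM in MG1, 176 and 341 CPM in MG2, 493 to 1090 CPM in MT1 and 87.4 to 251 CPM in MT2, changed by -0.51 (SE 0.27, adjusted p 0.128), and was called without MG1 replicate 2 or without MT2 replicate 1 (adjusted p 0.0369 and 0.0361).

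Mmp14 in fibroblast-like cells stood at 483 and 298 CPM in MG1, 944 and 963 CPM in MG2, 821 to 1490 CPM in MT1 and 970, 666 and 1180 CPM in MT2. The MT1 libraries all lay above MG1, whereas MT2 enclosed MG2. The change was 0.78 over both mice (SE 0.22, edgeR adjusted p 0.00515, but 0.0503 without MG1 replicate 2), 1.59 in mouse 1 (SE 0.32, adjusted p 0.000438) and -0.02 in mouse 2 (SE 0.30, adjusted p 0.971). Mrc2 stood at 37.1 and 10.3 CPM in MG1, 72.6 and 91.1 CPM in MG2, 74.2 to 168 CPM in MT1 and 62.4 to 125 CPM in MT2. It rose by 1.09 (SE 0.35, adjusted p 0.0138, but 0.0551 without MG1 replicate 2 and 0.0619 without MG2 replicate 1), with 2.00 in mouse 1 (SE 0.54, adjusted p 0.00562) and 0.19 in mouse 2 (SE 0.45, adjusted p 0.801). In DESeq2 the Mrc2 change over both mice was 1.03 and missed the threshold (adjusted p 0.0663). Mmp2 stood at 400 to 493 CPM in MG1 and at 557 to 974 CPM in MT1, without overlap. In MG2 and MT2 it stood at 893 to 1210 CPM and at 828 to 1090 CPM, which overlapped. The Mmp2 change over both mice was 0.25 (SE 0.20, edgeR adjusted p 0.322).

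Within mouse 1 the fibroblast-like comparison called 4 members higher and 2 lower, with 16.9% and 19.2% of all genes, and within mouse 2 it called 2 higher and 1 lower, with 9.03% and 11.9%. The change differed between the mice for Timp1 (2.25, edgeR adjusted p 0.00373) and Mmp14 (1.61, adjusted p 0.0311), 2 members higher in mouse 1 and 0 lower, with 2.71% and 0.998% of all genes. The Mmp14 difference was lost without MG1 replicate 2, MG2 replicate 1, MG2 replicate 2, MT1 replicate 4, MT1 replicate 5 or MT2 replicate 2, with adjusted p from 0.0503 to 0.154. In the cells of cluster 10 alone, a choice made after seeing the data, Timp1 was still higher in MT1 than in MG1 (3.27, SE 0.48, adjusted p 0.000562), while Mmp3 (-0.34), Mmp14 (0.09) and Timp2 (-0.49) missed the threshold with adjusted p from 0.311 to 0.915. That fit rested on 33 MT1 cells in 4 libraries, and Mmp13 and Mrc2 were left out of it by the filter on low counts.

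The median log2 fold change of the members was 0.54 in MT1 against MG1 (0.40 with genes at 0 in a gland set to their bound) beside 0.11 over all genes tested, 3.81 in MT2 against MG2 beside -0.05, and -1.41 in MT1 against MT2 beside 0.01. Of 47 further genes of matrix proteolysis in the table (other MMPs, ADAM and ADAMTS proteases, the plasminogen system, MMP activation and uptake, and collagen breakdown), 36 were tested outside the stroma. In MT1 against MG1, 9 were higher and 6 lower (median 0.24, 0.22 at the bounds). In MT2 against MG2 20 were higher and 6 lower (median 0.77, 0.74 at the bounds). In these comparisons 4 and 5 genes were set to a bound, having 0 UMIs in a group. Such genes passed the filter on low counts only through groups where they were read, so calls on them are no support for the counts. The shares of all genes called are those given above for the members.

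Among these, the matrilysin Mmp7 and the stromelysin Mmp10 were read in the tumor of mouse 1 and not in its gland. Mmp7 had 0 UMIs in MG1 and 210 in MT1, at least 10.9-fold higher, and 4 UMIs in MG2 and 0 in MT2. Mmp10 had 0 UMIs in both glands, 189 in MT1 and 26 in MT2, at least 9.86-fold and 1.86-fold higher, and both genes passed the filter on low counts only through tumor libraries. Adamts14, a procollagen-processing protease, had 0 UMIs in both glands, 64 in MT1 and 235 in MT2. Adam12 rose by 6.00 on the log2 scale in mouse 2 (SE 0.38, adjusted p 1.37e-10). Among those that fell, the membrane-type Mmp15 changed by -1.69 in mouse 1 (SE 0.33, adjusted p 0.000424) and was at least 277-fold lower in MT2, with 0 UMIs, than in MG2. Mmp16 had 49 UMIs in MG2 and 0 in MT2 (at least 76.1-fold lower), and 0 in MG1 and MT1. It passed the filter on low counts only through MG2, so its call is no support for a fall. Serpinf1 and the proprotein convertase Furin changed by -2.98 and -2.38 in mouse 1 (adjusted p 9.49e-05 and 6.75e-06).

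In fibroblast-like cells 28 of the wider list were tested, of which 9 were higher and 3 lower, with 22.4% and 23.1% of all genes. Mmp10 had 0 UMIs in the glands, 20 in MT1 and 440 in MT2. Serpinb2 had 0, 6, 14 and 294 UMIs in MG1, MG2, MT1 and MT2. Both passed the filter on low counts only through tumor libraries, so their edgeR calls (adjusted p 1.94e-07 and 1.75e-05) are no support for a rise. The serpin Serpine2, like Serpinb2 an inhibitor of the plasminogen activators, was higher by 4.11 (SE 0.31, adjusted p 2.81e-10). The aggrecanases Adamts1 (-1.33) and Adamts5 (-1.18) and the endocytic receptor Lrp1 (-0.90) were lower, with adjusted p from 1.54e-05 to 0.00445. Of 10 genes for matrix substrates, 2 were higher and 2 lower in MT1 against MG1, below the 32.2% and 27.1% of all genes. In MT2 against MG2 8 were higher and 1 lower, with 32.7% and 34.2% of all genes, and in fibroblast-like cells 5 of 9 tested were higher and 1 lower, with 22.4% and 23.1%.

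The balance of proteases and inhibitors was given per library as UMIs of the 6 MMP members per UMI of the 3 TIMP members, over all cells. It was 0.52 and 0.803 in MG1, 0.58 and 0.693 in MG2, 0.344, 0.349, 0.298, 0.325 and 0.286 in MT1 and 0.613, 0.475 and 0.568 in MT2. MT1 lay below all other libraries, while MT2 overlapped with the glands although both sums were higher there. The MMP sum was 968 to 1080 CPM in MT2 against 175 to 516 CPM elsewhere, and the TIMP sum 1640 to 2040 CPM against 402 to 698 CPM. Outside the stroma the ratio was 0.245 to 0.303 in MT1, 0.432 to 0.508 in MT2, 0.326 and 0.344 in MG2, and 0.263 and 0.795 in MG1.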

How the data were processed

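As deposited, the table holds whole UMI counts for each gene in each cell, without normalization. The authors made it with the Drop-seq tools and STAR on GRCm38.p6 (study's methods and submitters' processing notes) and filtered cells (the lowest has 800 genes). All columns were assigned (0 left over). Clustering used scanpy 1.11.5 with leidenalg 0.10.2 in Python 3.11.15 (3000 variable genes, 30 components, 20 neighbours, resolution 0.6), and names needed at least 3 markers, and 50% of the list, at a log2 fold of 1 (pseudocount 10 CPM). Doublets were not called. Instead, the 5% of cells with most UMIs per library were left out as an alternative. Libraries shared at most 7 barcodes, and each pair within a group differed by more than sampling noise.

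Sums per library, or for each animal's gland and tumor, were fitted in edgeR 4.0.16 (R 4.3.3) by the quasi-likelihood F test with TMM scaling and filterByExpr, adjusted by Benjamini-Hochberg over all genes tested (threshold 0.05). DESeq2 1.42.0 was an alternative. Fibroblast-like sums used libraries with 10 or more such cells (5 or more in the alternative of cluster 10 alone). SE is the absolute log2 fold change over the square root of F. The pairing by mouse comes from the labels. Folds over a group without UMIs are lower bounds, taken over 3 counts in it. Intervals are exact (95%) and, like these limits, cover counting error only. The tests were checked on simulated counts with 1 spread for all genes and no difference between mice, unlike these data. Over the comparisons simulated, 47 to 77% of changes of log2 1 and 77 to 92% of log2 2 were recovered, with 1 to 7 false calls. Named genes are the 10 members and, of the wider list, the 3 largest called changes each way. Members, lists and tests were chosen with earlier results of these data known.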

Additional observations from a re-analysis of the deposited data

Results flagged for a closer look

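The change from gland to tumor differed between the mice, by a test of the difference itself (mouse 1 minus mouse 2, log2 scale, edgeR), for 7 members in cells outside the stromal clusters: Mmp2 (-5.83, adjusted p 1.6e-09), Mmp3 (-3.33, adjusted p 0.00122), Mmp11 (-3.59, adjusted p 0.0268), Mmp14 (-0.99, adjusted p 0.0269), Timp1 (-2.33, adjusted p 6.38e-06), Timp2 (-0.63, adjusted p 0.0252) and Timp3 (1.61, adjusted p 8.72e-05). In fibroblast-like cells it differed for Timp1 (2.25, adjusted p 0.00373) and Mmp14 (1.61, adjusted p 0.0311), both in the opposite direction to that outside the stroma. Each mouse gave 1 tumor, so the mouse, the tumor and the library preparation cannot be told apart. In MT1, where 5 libraries allow a check for a library far from the others, none of the 10 members had one.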

How the results depend on the processing

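Of 570 log2 values of members under alternatives other than leaving out a library, 539 kept their direction and their side of the threshold, 15 lost the call, 5 gained one and 11 changed sign; the cause was not tested. With the stromal cells counted, Mmp2 in MT1 against MG1 was -1.42 (called lower), Timp2 -0.06 and Mrc2 -0.05, Mmp3 in MT2 against MG2 -0.97 and in the paired fit -2.33, and the difference between the mice for Mrc2 -2.71 (called lower). That difference was -2.27 in DESeq2 and -0.01 without gland cells in tumor clusters. Without the 5% of cells with most UMIs, Mmp2 and Mmp11 in MT1 against MG1 were each -0.05. Without a filter on low counts, Mmp14 in fibroblast-like cells of MT2 against MG2 was 0.07, and 1 member in place of 2 differed between the mice in those cells. In the cells of cluster 10, an alternative added after seeing the data, 1 member in place of 6 was called in MT1 against MG1, with Mmp13 and Mrc2 not tested there.

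With the mouse as a block (replicate block), edgeR called 0 members and DESeq2 called 3. Leaving out each library in turn gave 4 to 7 members in MT1 against MG1 (4 without MG1 replicate 1) and 4 to 7 for the difference between the mice (4 without MG1 replicate 1 or MG2 replicate 1), and in fibroblast-like cells 1 to 2 for that difference. Over the same fits Mmp2 ranged from -0.14 to 0.34 and Mmp14 from -0.78 to 0.64 in MT1 against MG1, and in fibroblast-like cells of MT2 against MG2 Mmp2 ranged from -0.40 to 0.05, Mmp14 from -0.20 to 0.20 and Mrc2 from -0.08 to 0.43. RLE scaling moved the median of all genes from 0.11 to 0.00 in MT1 against MG1 and from 0.15 to 0.00 for the difference between the mice, and turned no member's direction. A fit of fewer groups was not run for the difference between the mice, which needs all of them.

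Depth limits Mmp9, Mmp13 and Mrc2, with 0 UMIs in MG1 outside the stroma, where 3 UMIs would be 0.997 CPM, and the MT1 fibroblast-like values, which rest on 135 cells.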

Other observations

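Over 19 units of cluster by group with 50 or more cells, the genes whose log2 level (CPM plus 10) went most closely with each member were listed among 11759 genes, as a description with no test. The units share libraries, depth and cell type. For Mrc2 the closest were Olfml3 (Pearson r 0.983), Map1a (0.970) and Thbs2 (0.964), and for Mmp2 Col5a2 (0.976), Cd302 (0.973) and Rcn3 (0.946). For Mmp3 they were Fbln1 (0.961), Ogn (0.959) and Tnfaip6 (0.954). Mmp9 went with Fam105a (0.950), Mrc1 (0.926) and Ptpn22 (0.918). Both Mmp11 (0.919) and Mmp13 (0.930) had the plasminogen activator inhibitor Serpinb2 among their closest 3, and Mmp13 was closest to Crabp1 (0.939). Timp1 was closest to Adamts7 (0.947), Timp2 to Lpar1 (0.924), Timp3 to Ttc28 (0.880) and Mmp14 to Rassf8 (0.876).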
